A study of Mus musculus with 12 samples.

Results

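The 9 genes described here encode the motor of the heart muscle cell and the proteins that sit on it. They are the heavy chains Myh6, Myh7 and Myh7b, the light chains Myl2, Myl3, Myl4 and Myl7, the cardiac myosin light chain kinase Mylk3 and the cardiac myosin-binding protein C, Mybpc3. They were found by gene name among 22915 genes, all 9 were listed, and 8 of them passed the filter on low values. RNA was sequenced from primary cardiomyocytes of C57/Bl6 mice, adult males of 12 weeks, that were kept in culture for 24 h with mLIF, hlOSM, mOSM or PBS alone, with 3 libraries in each of the 4 conditions. The labels give no transgene or injury for any condition, and PBS, the carrier of the cytokines, served as the control. Murine LIF (mLIF) binds the LIF receptor and murine OSM (mOSM) the OSM receptor, while hlOSM is murine OSM carrying the human AB loop and signals through both, so that the 3 cytokines separate one receptor from the other and from both together. The labels give 25 ng/mL of each cytokine and the methods of the study another concentration. It is not stated if a replicate number marks one preparation of cells, so p-values measure only the spread between these libraries, which may be technical. Deviations of libraries with the same number from their condition means correlated below 0 in 17 of 18 pairs and the number held less of the variance than one without effect would, and the sources used here do not say if a replicate effect was removed before deposit. If it was, the p-values without a block for the number are too small.

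Myosin molecules bundle into the thick filament of the sarcomere, and their heads pull on the thin filament with the energy of ATP. Each heavy chain carries an essential and a regulatory light chain in the neck of its head. In the mouse, the adult ventricle runs mainly on the fast α heavy chain of Myh6, while the slower β heavy chain of Myh7 dominates before birth. Phosphorylation of the regulatory light chain by the kinase and the binding of myosin-binding protein C both tune how readily heads reach the thin filament.

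Values are normalized counts, which the authors scaled between libraries and rounded and which are not divided by gene length, so that they compare a gene between conditions but not 2 genes with each other. In libraries exposed to PBS, Myh6 stood at 560 ± 38.1 per exonic kb (SD, n = 3) and ranked 10 among 13177 genes. Mybpc3 followed with 456 ± 21.2 per kb and Myl3 with 363 ± 14.4. Mylk3 at 267 ± 30.6 per kb and Myl2 at 253 ± 19.2 had overlapping libraries and could not be ordered. Myh7 stood far lower at 54.0 ± 1.06 per kb, Myl4 at 11.1 ± 2.05 and Myh7b at 2.86 ± 1.09, while Myl7 was next to absent at 1.13 ± 0.979. Except for Mylk3 and Myl2, no libraries of neighbours overlapped between Myh6 and Myh7b in this order. The order depended on the length used, since with the longest coding transcript in place of all exonic bases Myl3 led with 792 per kb, before Myh6 with 616 and Myl2 with 555. With hlOSM, Myl3 (331 ± 14.2 per kb) and Mybpc3 (321 ± 15.3) had overlapping libraries and exchanged places. Myl2 stood above Mylk3 with each cytokine, and their libraries, which overlapped with PBS, no longer did. Mylk3 lay from 172 to 193 per kb and Myl2 from 200 to 233 with mLIF. These ranges were 132 to 161 and 195 to 250 with mOSM, and 119 to 141 and 212 to 226 with hlOSM. By the longest coding transcript neither pair exchanged places. There Myl3 stood above Mybpc3 and Myl2 above Mylk3 in all 4 conditions, with Myl2 at 555 and Mylk3 at 309 per kb with PBS.

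**Figure D1:**
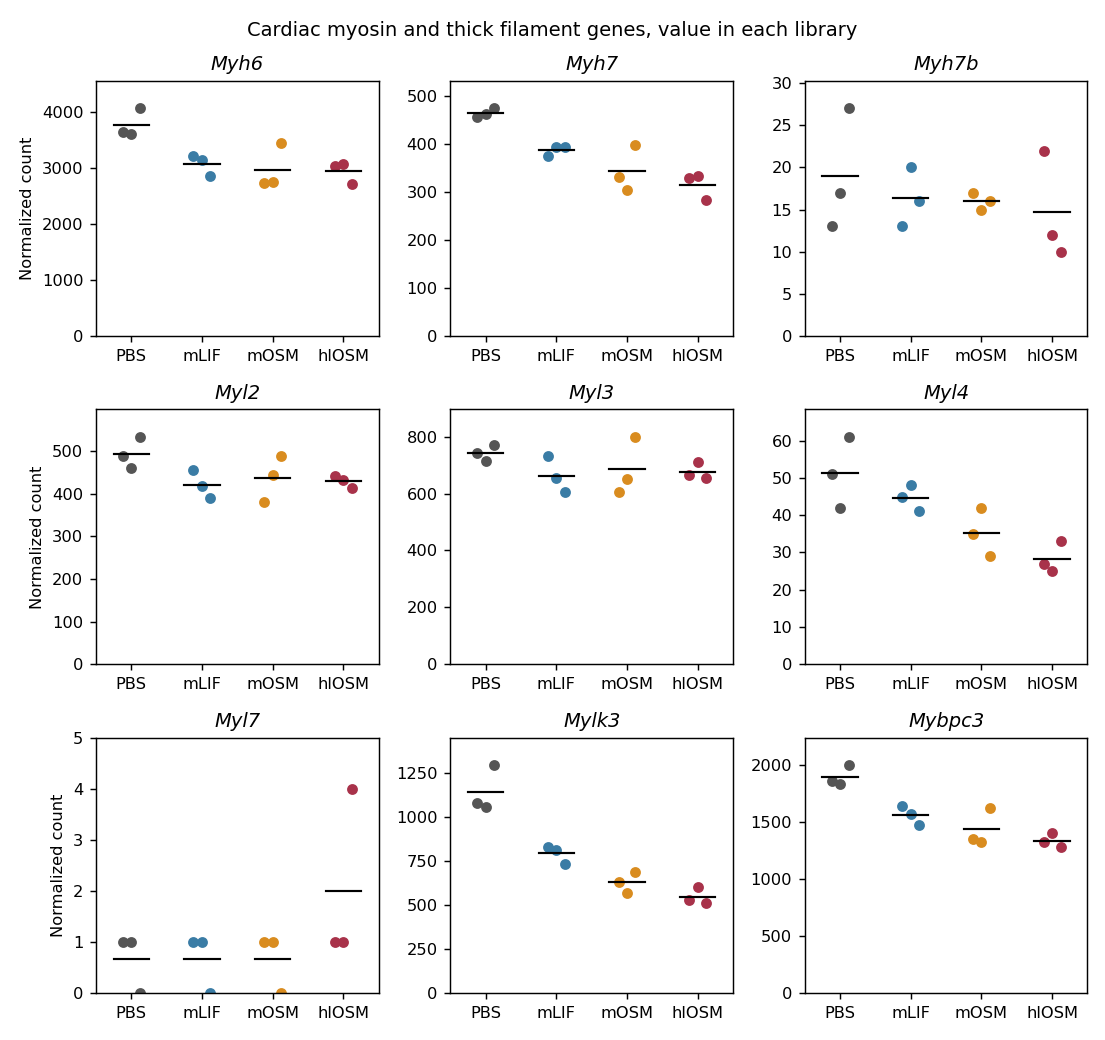
Normalized count (vertical axis, from 0, own scale per gene) of the 9 genes in each of the 12 libraries, by condition. Points are libraries and bars are means of 3. Mylk3 lies between 1056 and 1293 with PBS and between 509 and 603 with hlOSM, and Myl7 does not exceed 4.

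The heavy chain genes carry microRNAs in their introns, and their sequences are shown because the seed, in capitals, tells which of them are alike. Sequences and positions are those of RefSeq on GRCm38.p6, the same assembly as the mm10 of the gene table, and all 3 microRNAs lie on the strand of their host gene. The first is encoded in intron 29 of Myh6 (chr14:54949072-54949093), the second in intron 31 of Myh7 (chr14:54975710-54975731) and the third in intron 19 of Myh7b (chr2:155622893-155622913).

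mmu-miR-208a-3p: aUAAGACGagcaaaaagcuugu
mmu-miR-208b-3p: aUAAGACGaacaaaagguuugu
mmu-miR-499-5p: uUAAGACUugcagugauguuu

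The first and second share the seed UAAGACG, at positions 2 to 8 of the mature sequence. That of miR-499-5p is UAAGACU, which differs from it only in the last base. The library preparation was not made for small RNAs. A gene row for Mir208a held values from 0 to 2, above 0 in 3 libraries, and the other 2 microRNA genes were not analysed here.

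Myh6 (chr14:54941921-54966927, minus strand) encodes the α heavy chain. Its normalized counts were 3631, 3603 and 4060 in PBS libraries, 3218, 3132 and 2849 with mLIF, 2721, 2750 and 3436 with mOSM, and for hlOSM 3026, 3061 and 2716. Every library with a cytokine lay below every library with PBS, although mOSM replicate 3 came close. Myh6 fell under mLIF by 0.30 on the log2 scale (SE 0.075, limma, adjusted p = 0.0149), under mOSM by 0.35 (limma, adjusted p = 0.00106) and under hlOSM by 0.36 (limma, adjusted p = 0.000632). All of these calls were lost after quantile normalization, where the log2 fold changes shrank to -0.10 with each cytokine (limma, adjusted p = 0.338, 0.274 and 0.224). The call with mLIF was also lost without PBS replicate 3 (limma, adjusted p = 0.0936) or mLIF replicate 3 (limma, adjusted p = 0.105).

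Myh7 (chr14:54970684-54994626, minus strand) encodes the β heavy chain and lies next to Myh6. It was counted at 457, 463 and 475 with PBS, at 376, 394 and 394 with mLIF, at 331, 305 and 399 with mOSM and at 330, 334 and 283 with hlOSM. The PBS libraries lay close together and above all others. Myh7 fell with mLIF (log2 fold change -0.26, SE 0.080, limma, adjusted p = 0.0415), mOSM (-0.44, limma, adjusted p = 0.000208) and hlOSM (-0.56, limma, adjusted p = 8.31e-06), and it was lower with hlOSM than with mLIF (-0.30, limma, adjusted p = 0.0116). The call with mLIF stood near the threshold: it was lost without a filter, after quantile normalization, with the replicate number as a block (limma, adjusted p = 0.0699) and without any one of the 6 libraries with PBS or mLIF (limma, adjusted p from 0.0646 to 0.128). The difference between hlOSM and mLIF was lost without hlOSM replicate 3 (limma, adjusted p = 0.0738).

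The balance of the 2 heavy chains is a common readout of the state of the ventricle, and here it was measured within each library. Of the summed Myh6 and Myh7 per exonic kb, Myh7 made up 8.81% ± 0.39 with PBS, 9.01% ± 0.70 with mLIF, 8.32% ± 0.35 with mOSM and 7.74% ± 0.19 with hlOSM (SD, n = 3). The 3 libraries with hlOSM, from 7.52% to 7.85%, lay below all others, of which mOSM replicate 2 was the nearest at 7.97%. Over the 4 conditions the log2 ratio of Myh7 to Myh6 had p = 0.0295 in a two-sided exact permutation test over 15400 arrangements and 0.0629 after adjustment for the 3 ratios examined, so it did not pass, although it did without mLIF replicate 1 (exact permutation test, adjusted p = 0.0245). The log2 ratio was 0.20 lower with hlOSM than with PBS, and 3 libraries against 3 cannot give an exact p below 0.1. With the length of the longest coding transcript the shares were 10.8%, 11.1%, 10.2% and 9.54% in the same order. The 2 genes share sequence. Of the 75-base stretches of Myh6, 15.55% occur in another gene as well on either strand, and of those of Myh7 19.7%. The other of the pair and Mhrt are among those genes. Exons on the other strand cover 1.69% of the exonic bases of Myh6 and 13.34% of those of Myh7. Stretches shared in that way lie at a single place and are not likeness of the 2 genes. The part due to likeness was not separated. The authors left out reads that matched several places or overlapped several genes, so that both levels were counted from the rest.

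**Figure D2:**
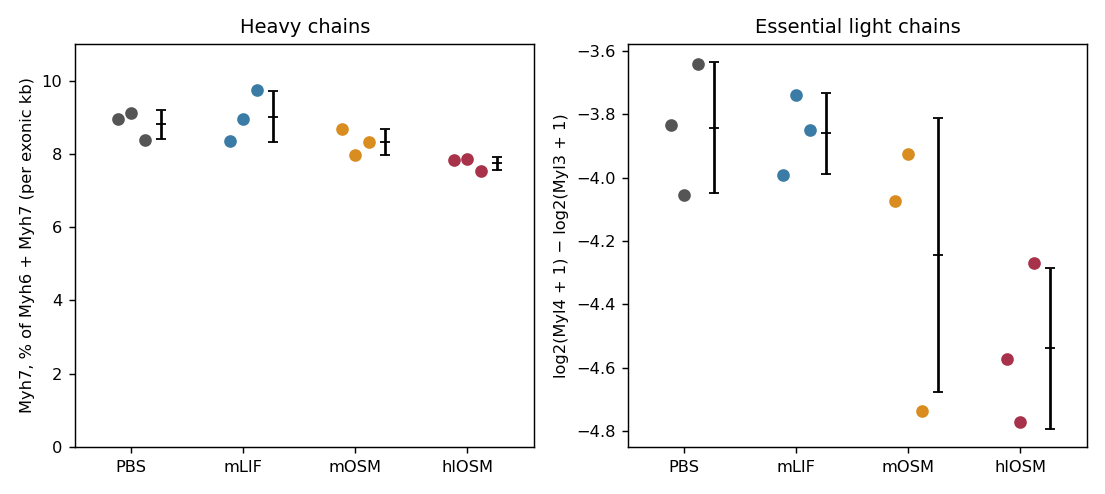
Left, Myh7 as % of Myh6 plus Myh7 per exonic kb (axis from 0). Right, log2 ratio of Myl4 to Myl3 (pseudocount 1, axis not from 0). Points are libraries, and bars show the mean and SD of 3. The Myh7 share lies between 7.52% and 7.85% with hlOSM, and the light chain ratio of mOSM replicate 3 lies among those of hlOSM.

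Between the 2 heavy chain genes the opposite strand carries Mhrt (chr14:54968678-54974349), a long noncoding RNA known for its antagonism to the chromatin remodeler Brg1. It is not a thick filament gene and is given because it overlaps Myh7. Mhrt was counted at 103, 113 and 129 with PBS, 63, 76 and 60 with mLIF, 55, 48 and 75 under mOSM and 57, 48 and 39 under hlOSM. It fell with all 3 cytokines, with log2 fold changes of -0.79, -0.96 and -1.25 (limma, adjusted p = 0.00273, 5.22e-05 and 1.28e-06). Exons of Myh7 cover 39.87% of its exonic bases, and the strand setting of the counting is not stated. If strand was ignored, reads there were left out, since the authors excluded reads overlapping several genes. If it was used, they were assigned by strand.

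Myh7b (chr2:155611212-155634307, plus strand), an ancient heavy chain gene that makes little protein in the heart, was counted at 13, 17 and 27 with PBS, 13, 20 and 16 with mLIF, 17, 15 and 16 under mOSM and 22, 12 and 10 under hlOSM. The conditions overlapped in full. No difference passed the test, and at these low counts the interval for hlOSM against PBS ran from -0.95 to 0.22 on the log2 scale (limma, adjusted p = 0.323).

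The light chains split by chamber type. Myl2, the regulatory light chain of the ventricle (chr5:122100951-122113472, plus strand), was counted at 487, 459 and 533 with PBS, 455, 418 and 390 with mLIF, 381, 443 and 487 under mOSM and 441, 433 and 413 under hlOSM. Libraries with mLIF and hlOSM lay below those with PBS and those with mOSM overlapped them. The log2 differences from PBS were -0.23, -0.18 and -0.20 and did not pass the threshold (limma, adjusted p = 0.0681, 0.09 and 0.0513). Without mOSM replicate 3 all of them passed (limma, adjusted p = 0.0379, 0.015 and 0.0288), and hlOSM also did without PBS replicate 2, mLIF replicate 1 or mOSM replicate 1 (limma, adjusted p from 0.028 to 0.0492), as did mLIF without mOSM replicate 1 (limma, adjusted p = 0.0402). With only the 6 libraries compared in the fit, Myl2 passed with mLIF (limma, adjusted p = 0.0242) and hlOSM (limma, adjusted p = 0.0227), and with hlOSM it also passed with a pseudocount of 5 (limma, adjusted p = 0.049) or a filter at 50 (limma, adjusted p = 0.0438).

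Myl3, the essential light chain of the ventricle (chr9:110741861-110769798, plus strand), showed the smallest differences from PBS with mOSM and hlOSM among the genes tested. Its counts were 741, 713 and 772 with PBS, 731, 653 and 605 with mLIF, 605, 652 and 799 under mOSM and 666, 710 and 655 under hlOSM. The highest library of all was mOSM replicate 3. The log2 differences were -0.17, -0.12 and -0.13 (limma, adjusted p = 0.196, 0.26 and 0.205), with an interval for hlOSM from -0.30 to 0.03, and without mOSM replicate 3 that of mOSM passed (limma, adjusted p = 0.0113).

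Myl4, the essential light chain of the atrium and of the fetal ventricle (chr11:104550663-104595753, plus strand), was counted at 51, 42 and 61 with PBS, 45, 48 and 41 with mLIF, 35, 42 and 29 under mOSM and 27, 25 and 33 under hlOSM. All libraries with hlOSM lay below all with PBS or mLIF, while one library with mOSM reached the lowest with PBS. Myl4 fell with hlOSM by 0.83 on the log2 scale (SE 0.168, limma, adjusted p = 0.000485) and with mOSM by 0.53 (limma, adjusted p = 0.0202). With mLIF the difference was -0.18 (limma, adjusted p = 0.525), and hlOSM was lower than mLIF by 0.65 (limma, adjusted p = 0.00982). The call with mOSM was lost without PBS replicate 3 (limma, adjusted p = 0.123) or mOSM replicate 3 (limma, adjusted p = 0.0994), and that between hlOSM and mLIF without mLIF replicate 2 (limma, adjusted p = 0.0505).

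Set against Myl3 in the same library, Myl4 stood at a log2 ratio of -3.84 ± 0.21 with PBS, -3.86 ± 0.13 with mLIF, -4.25 ± 0.43 with mOSM and -4.54 ± 0.25 with hlOSM (SD, n = 3). The ratio was 0.70 lower with hlOSM than with PBS. Over the 4 conditions it had p = 0.0419 in the exact permutation test and 0.0629 after adjustment, and it did not pass.

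Myl7, the regulatory light chain of the atrium (chr11:5896637-5898782, minus strand), was listed at 1, 1 and 0 in PBS, mLIF and mOSM libraries alike and at 1, 1 and 4 with hlOSM. It was not tested, and its log2 ratio to Myl2 rests on the pseudocount (exact permutation test over the 4 conditions, p = 0.44).

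Mylk3 (chr8:85324303-85386345, minus strand), the kinase that phosphorylates Myl2 protein in the heart, changed most among the 9 genes. It was counted at 1077, 1056 and 1293 with PBS, 828, 814 and 735 with mLIF, 630, 567 and 689 under mOSM and 530, 603 and 509 under hlOSM. Libraries with PBS lay above those with mLIF, and these above all with mOSM or hlOSM, which overlapped each other. Against PBS, Mylk3 fell by 0.52 (SE 0.081) on the log2 scale with mLIF, by 0.86 with mOSM and by 1.06 with hlOSM (limma, adjusted p = 0.000335, 3.18e-08 and 8.78e-10). It was lower than with mLIF by 0.34 with mOSM (limma, adjusted p = 0.00656) and by 0.53 with hlOSM (limma, adjusted p = 4.9e-05). These 5 calls held in every setting and with any library left out.

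Mybpc3 (chr2:91118144-91136516, plus strand) encodes the cardiac myosin-binding protein C, a frequent site of mutations in inherited cardiomyopathy. Its counts were 1859, 1836 and 1999 with PBS, 1644, 1574 and 1474 with mLIF, 1356, 1329 and 1625 under mOSM and 1322, 1408 and 1284 under hlOSM. As for Myh6, all libraries with a cytokine lay below all with PBS and mOSM replicate 3 was the highest of its condition. Mybpc3 fell by 0.28 (SE 0.066) with mLIF, 0.41 with mOSM and 0.50 with hlOSM on the log2 scale (limma, adjusted p = 0.00945, 5.4e-05 and 2.63e-06). It was lower with hlOSM than with mLIF by 0.22 (limma, adjusted p = 0.0209). The call with mLIF was lost without PBS replicate 3 (limma, adjusted p = 0.0587) or mLIF replicate 3 (limma, adjusted p = 0.0739), and that between hlOSM and mLIF without mLIF replicate 1 or 2 or hlOSM replicate 1 or 3 (limma, adjusted p from 0.0617 to 0.112).

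**Figure D3:**
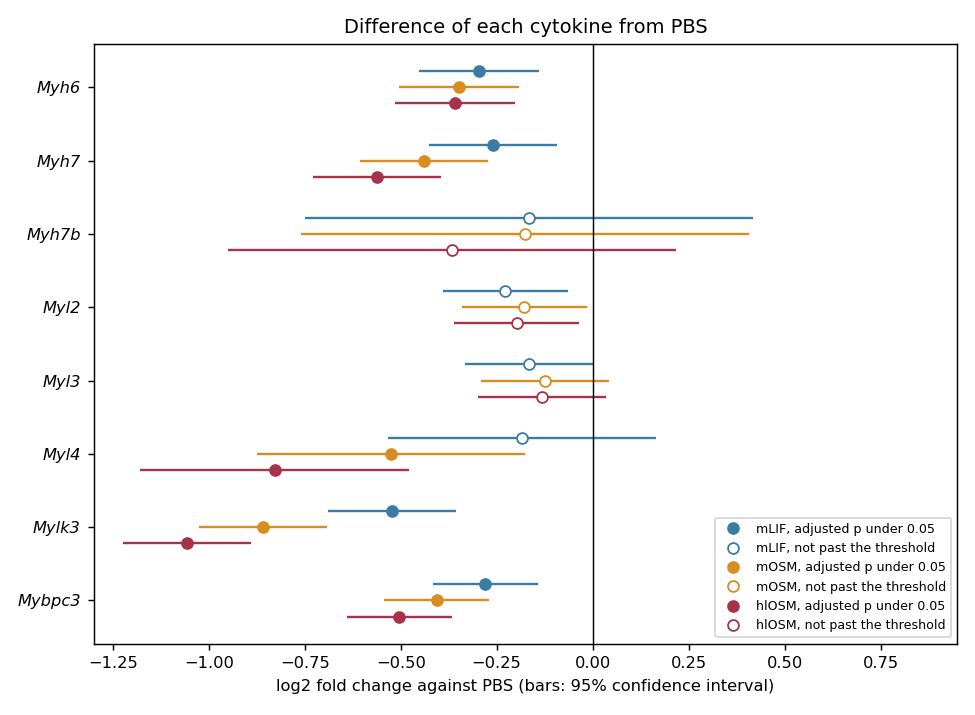
Fitted log2 fold change against PBS (horizontal axis) of the 8 tested genes with mLIF, mOSM and hlOSM. Bars are 95% confidence intervals, and filled points have a limma adjusted p under 0.05. All points lie left of 0, from -0.12 for Myl3 with mOSM to -1.06 for Mylk3 with hlOSM.

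Counted over the 8 genes tested, 4 fell with mLIF, where 4.44% of all 13184 genes tested were lowered. With mOSM 5 fell, beside 15.8% of all genes, and with hlOSM 5, beside 19.8%. None rose with any cytokine, where 5.47%, 15.4% and 18.2% of all genes did. A block for the replicate number left 3, 5 and 5 of the 8 lowered, beside 2.56%, 12.8% and 16.5% of all genes. Myh6, Myh7, Mylk3 and Mybpc3 fell with all 3, and Myl4 with mOSM and hlOSM. The groups did not overlap for 5 genes with mLIF, 4 with mOSM and 7 with hlOSM, where 15.6%, 19.9% and 24.3% of all genes lay wholly below PBS. For mLIF, mOSM and hlOSM the median log2 fold change of the 8 was -0.24, -0.38 and -0.44, while that of all genes lay within 0.01 of 0 on the same scale. The 3 comparisons share the PBS libraries and are not independent of each other. Over all 4 conditions, Myh6, Myh7, Myl4, Mylk3 and Mybpc3 differed by the F test of limma, as did 34.2% of all genes.

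Between the cytokines, hlOSM was lower than mLIF for 4 of the 8, namely Myh7, Myl4, Mylk3 and Mybpc3, where 9.22% of all genes were. mOSM was lower than mLIF for Mylk3 alone (5.76% of all genes), and without mOSM replicate 3 for 3 genes. Myh6 did not differ between hlOSM and mLIF by the test, with a log2 difference of -0.06 and an interval from -0.22 to 0.09. hlOSM and mOSM, which differ in the AB loop, were told apart for none of the 8 by limma at an adjusted p under 0.05, where 0.106% of all genes passed. At an unadjusted p under 0.05, for which the share of all genes is not given here, there was 1 of the 8. This gene was Mylk3, at -0.20 with an interval from -0.37 to -0.03 (limma, adjusted p = 0.544). For Myh6 the interval between hlOSM and mOSM ran from -0.17 to 0.15, for Myh7 from -0.29 to 0.04 and for Myl4 from -0.65 to 0.05.

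The design also allows the step from mOSM to hlOSM to be set against the step from PBS to mLIF. Both add signaling through the LIF receptor. That hlOSM acts on the OSM receptor as mOSM does is assumed and was not tested. For Mylk3 the fall in the first step was smaller by 0.32 on the log2 scale (interval 0.09 to 0.56, limma, adjusted p = 0.258) and for Myh6 by 0.29 (0.07 to 0.51, limma, adjusted p = 0.295). None of the 8 passed by limma at an adjusted p under 0.05, where 0.167% of all genes did. At an unadjusted p under 0.05 there were 2 of the 8, and the share of all genes at that level is not given here. Without mOSM replicate 3, Myh6 passed at a limma adjusted p of 0.0496.

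Upstream sequence is shown for the genes that fell with all 3 cytokines. Each is the 250 bases before the transcription start that RefSeq gives on GRCm38.p6, read 5′ to 3′ on the strand of the gene, and capitals mark motif matches. Windows were found for all 9 genes. Those of Myl2 and Myl4, which are not among the genes shown, lie 7794 and 26322 bases from the start of the transcript used here. The windows are chr14:54966608-54966857 for Myh6, chr14:54994627-54994876 for Myh7, chr8:85365325-85365574 for Mylk3 and chr2:91117894-91118143 for Mybpc3.

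Myh6: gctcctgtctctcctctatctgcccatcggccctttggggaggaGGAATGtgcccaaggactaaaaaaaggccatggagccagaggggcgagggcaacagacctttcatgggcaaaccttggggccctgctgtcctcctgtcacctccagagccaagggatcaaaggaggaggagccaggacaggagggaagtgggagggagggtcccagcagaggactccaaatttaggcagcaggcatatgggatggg
Myh7: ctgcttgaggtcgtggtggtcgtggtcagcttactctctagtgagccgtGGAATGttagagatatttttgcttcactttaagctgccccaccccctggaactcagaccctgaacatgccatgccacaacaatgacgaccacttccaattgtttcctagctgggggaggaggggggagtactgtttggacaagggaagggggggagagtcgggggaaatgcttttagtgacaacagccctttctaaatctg
Mylk3: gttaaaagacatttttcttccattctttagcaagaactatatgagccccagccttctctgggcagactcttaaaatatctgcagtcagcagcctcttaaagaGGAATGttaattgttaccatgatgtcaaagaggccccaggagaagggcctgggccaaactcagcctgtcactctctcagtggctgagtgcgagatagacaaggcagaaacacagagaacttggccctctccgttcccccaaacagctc
Mybpc3: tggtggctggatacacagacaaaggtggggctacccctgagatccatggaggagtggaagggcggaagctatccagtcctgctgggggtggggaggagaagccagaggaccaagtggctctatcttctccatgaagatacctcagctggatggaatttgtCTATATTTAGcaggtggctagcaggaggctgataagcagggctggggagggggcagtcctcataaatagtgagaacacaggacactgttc

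The motifs searched on both strands were TTCNNNGAA for STAT factors, CATTCC (the MCAT site of TEAD factors), AGATAA for GATA factors, TATAAA (the TATA box), the nuclear receptor motif AGGTCA, and the MEF2 and CArG boxes by their usual consensus. An MCAT site was found in Myh6, at position -206, in Myh7, at -201, and in Mylk3, at -148, counted from the transcription start. Of the 7 windows near the start of the transcript used, 5 held it, beside 12.6% of 32851 promoter windows of the same length. Mybpc3 held a MEF2 box at -90 (2.92% of promoters), Myl3 and Myl7 a CArG box each (1.47%), and Myh7b an AGATAA (9.99%) and an AGGTCA (14%). TTCNNNGAA, which 7.02% of promoters held, was in none of the 9 windows. TATAAA (12.4%) was only in that of Myl2, which is not near the start of the transcript used. A match of letters is not a site shown to be bound.

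Of 24 further genes of the thick filament and its M-band anchor, 19 were listed and 12 tested. None rose, and 3 fell with mLIF, 7 under mOSM and 8 under hlOSM (4.44%, 15.8% and 19.8% of all genes), with medians of -0.18, -0.21 and -0.24 on the log2 scale. Ttn, the spring on which thick filaments are built, fell by 0.20, 0.52 and 0.48 on the log2 scale (limma, adjusted p = 0.0234, 1.3e-07 and 3.03e-07). Obsl1, a cytoskeletal linker of the M-band, fell with mOSM (-0.43, limma, adjusted p = 0.000312) and hlOSM (-0.51, limma, adjusted p = 3.71e-05). The heavy chains of the list lay below the filter or were not analysed here. The count with mLIF was the least stable, from 0 after quantile normalization to 9 with only the 6 libraries compared.

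Of 15 tested genes that set the phosphorylation of the regulatory light chain, 1 rose and 3 fell with mLIF, 2 rose and 5 fell with mOSM, and 5 rose and 7 fell with hlOSM. Of all genes tested, 5.47%, 15.4% and 18.2% rose and 4.44%, 15.8% and 19.8% fell in these comparisons. Mylk4, a kinase related to Mylk3, fell from 957 ± 159 with PBS to 617 ± 28.5, 552 ± 33.1 and 495 ± 46.4 with mLIF, mOSM and hlOSM (-0.62, -0.78 and -0.94 on the log2 scale, limma, adjusted p = 0.000116, 3.01e-07 and 1.38e-08). Mylk, the kinase of smooth muscle, fell with mOSM and hlOSM (-0.44 and -0.43, limma, adjusted p = 0.0251 and 0.0234), and both calls were lost with the replicate number as a block (limma, adjusted p = 0.0652 and 0.0597). Mylk2, the kinase of skeletal muscle, is named outside the rule after its values were seen: it rose with mLIF, mOSM and hlOSM (0.36, 0.67 and 0.30, limma, adjusted p = 0.0348, 4.54e-05 and 0.0337). Ppp1cc, a catalytic subunit of protein phosphatase 1, rose with hlOSM (0.34, limma, adjusted p = 0.0195) from 78.3 with PBS. The other catalytic subunits of the list, named outside the rule after their values were seen, did not rise with hlOSM. Ppp1cb, at 1212 with PBS, fell with hlOSM (-0.16, limma, adjusted p = 0.0209), and Ppp1ca, at 323, did not pass (-0.04, limma, adjusted p = 0.678). Without PBS replicate 3 the calls with hlOSM dropped from 12 to 5.

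**Figure D4:**
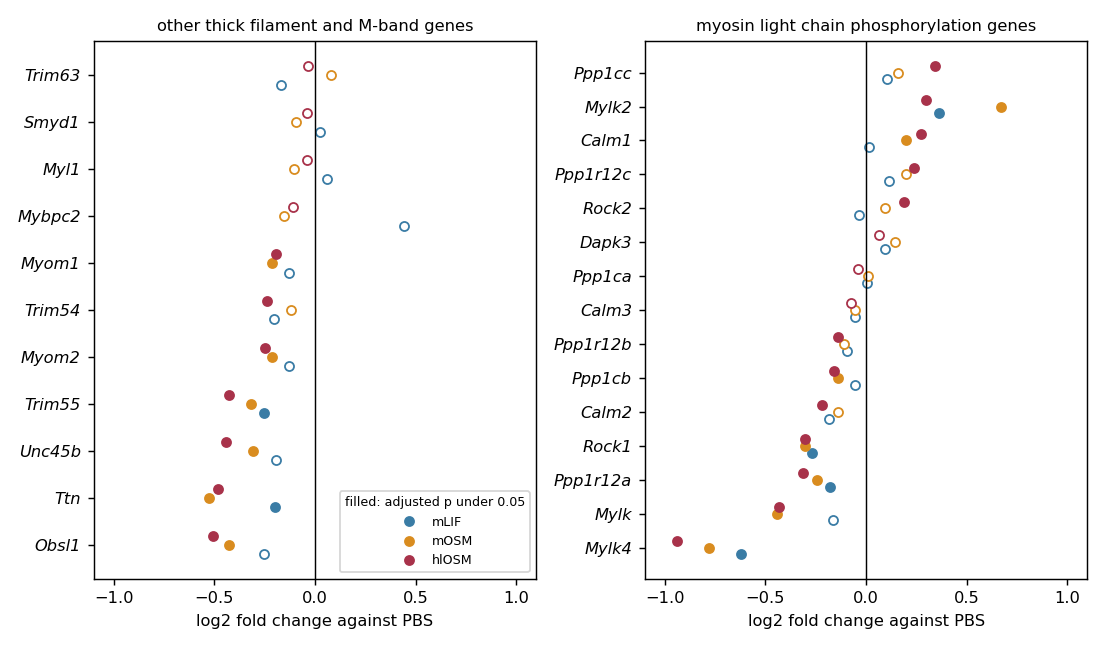
Fitted log2 fold change against PBS (horizontal axis) of other thick filament and M-band genes (left) and 15 genes of light chain phosphorylation (right) with mLIF, mOSM and hlOSM. Filled points have a limma adjusted p under 0.05. Ttn reaches -0.52 with mOSM and Mylk4 -0.94 with hlOSM, and Mylk2 lies right of 0 with all 3 cytokines.

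Of 9 nonmuscle and smooth muscle myosin genes, none rose, 1 fell with mLIF and 4 fell with each of mOSM and hlOSM, where 4.44%, 15.8% and 19.8% of all genes fell. The smooth muscle heavy chain Myh11 was at 30.7 ± 9.81 with PBS, 18.7 ± 1.15 with mLIF, 6 ± 2 under mOSM and 10 ± 0 under hlOSM, and fell with mOSM and hlOSM (log2 fold changes -2.18 and -1.48, limma, adjusted p = 9.85e-07 and 9.84e-05). Myl9, a regulatory light chain of smooth muscle, went from 23.3 ± 2.52 to 8.33 ± 3.21 and 6.67 ± 1.53 with mOSM and hlOSM (limma, adjusted p = 0.000187 and 2.17e-05). Myh14 fell with all 3 (-0.29, -0.44 and -0.53, limma, adjusted p = 0.00303, 4.9e-06 and 2.35e-07).

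Among 22 tested regulators of cardiac myosin genes, 3 fell with mLIF, 12 under mOSM and 11 under hlOSM, and 2 rose with each of mOSM and hlOSM. Of all genes, 4.44%, 15.8% and 19.8% fell with the 3 cytokines, and 15.4% and 18.2% rose with mOSM and hlOSM. Mef2c, a muscle transcription factor, fell by 0.29, 0.72 and 0.76 with mLIF, mOSM and hlOSM (limma, adjusted p = 0.00346, 4.83e-09 and 1.22e-09). Nr2f2, known for atrial identity, fell by 0.54 and 0.55 with mOSM and hlOSM (limma, adjusted p = 0.000236 and 0.000146). Tead4, of the family that binds MCAT sites, rose from 7.33 ± 3.06 to 15 ± 4.58 and 13.3 ± 2.52 (0.98 and 0.84, limma, adjusted p = 0.0228 and 0.0418), and both calls were lost with the block (limma, adjusted p = 0.0531 and 0.0846). Tead1 of the same family is named outside the rule after its values were seen. Its normalized count was 1313 with PBS, not divided by gene length. The log2 differences of Tead1 of 0.03, -0.01 and 0.07 did not pass (limma, adjusted p = 0.789, 0.939 and 0.383).

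The cultures held defining markers of cardiomyocytes, and markers of other cell types were present and moved as well. All 8 cardiomyocyte markers were tested, and 5 fell with mLIF and 7 with each of mOSM and hlOSM, beside 4.44%, 15.8% and 19.8% of all genes. Their sum lay from 16866 to 18458 with PBS, 14896 to 16577 with mLIF, 13364 to 15283 with mOSM and 13552 to 14147 with hlOSM. The mean sum was lower than with PBS by 10.8%, 19.6% and 21.0%, where Myh6 was lower by 18.6%, 21.1% and 22.1%, Mybpc3 by 17.6%, 24.3% and 29.5% and Mylk3 by 30.6%, 45.0% and 52.1%. In bulk RNA, fewer cardiomyocytes and less RNA of these genes per cardiomyocyte cannot be told apart.

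Of 6 endothelial markers, 4 rose with mOSM and 5 with hlOSM (15.4% and 18.2% of all genes), and their sum went from between 1033 and 1092 to between 1282 and 1429 and between 1293 and 1374. Of 6 smooth muscle and pericyte markers, Myh11 among them, 5 were tested. Of these 4 fell with mOSM and 5 with hlOSM (15.8% and 19.8% of all genes). The sum of the 6 went from between 751 and 912 to between 522 and 537 with hlOSM. Of 7 fibroblast markers, 2 rose and 5 fell with hlOSM (18.2% and 19.8% of all genes). Their sum lay from 2223 to 2465 with PBS, wholly lower with mLIF (2026 to 2170), and overlapped PBS with mOSM (2373 to 2817) and hlOSM (2236 to 2442). Of 6 leukocyte markers, 5 of them tested, 1 rose with each cytokine (5.47%, 15.4% and 18.2% of all genes) and 1 fell with hlOSM (19.8%). Their sum, 300 to 316 with PBS, was wholly higher with mOSM (339 to 386) and overlapped PBS with mLIF (279 to 319) and hlOSM (315 to 387). Of 7 atrial markers 6 were listed and 4 tested, and 3 fell with hlOSM (19.8% of all genes). The sum of the 6 went from between 531 and 561 to between 373 and 380. Sln lay below 10 throughout, as did Cnn1 of smooth muscle and C1qa of leukocytes. Of 4 ventricular markers 2 fell with hlOSM (19.8% of all genes), from a sum between 2465 and 2678 to one between 1851 and 2001. The part of these shifts in the differences of the myosin genes was not tested.

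**Figure D5:**
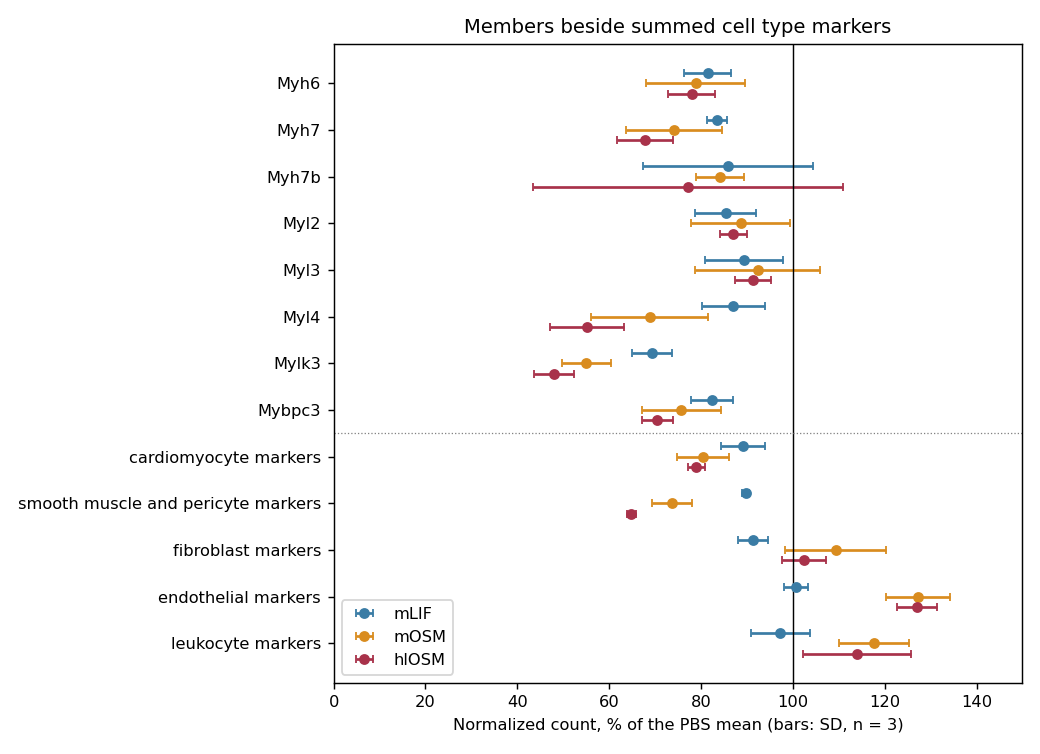
Normalized count as % of the PBS mean (horizontal axis, from 0) for the 8 tested genes and for summed markers of 5 cell types with mLIF, mOSM and hlOSM. Points are means and bars SD of 3 libraries. With hlOSM, Mylk3 stands at 47.9% and the cardiomyocyte markers at 79.0%.

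Over the 12 libraries, log2 values of the members went together to different degrees, which is given as a description of libraries that share conditions and scaling. Pearson's r was 0.973 for Mylk3 and Mybpc3, 0.954 for Myh7 and Mybpc3 and 0.943 for Myh6 and Mybpc3. Myl2 and Myl3 had r = 0.913, but Myl3 had r = 0.546 with Myh7 and 0.141 with Myl4. Among 8664 other genes with a mean of at least 50, the most alike to Myh6 were Fxr1 (r = 0.980), Hrc (0.980) and Tpm1 (0.974), and to Myh7 Uaca, Notch3 and Hip1 (0.979 to 0.981). Those nearest to Myl2 were Bsg (0.994), Tnni3 (0.983) and Drap1 (0.972), and to Myl3 Calr (0.989), Mb (0.981) and Ppp2ca (0.979). For Mylk3 they were Gm19325 (0.995), Fyco1 (0.991) and Rbm20 (0.990), for Mybpc3 Cmya5 (0.992), Trdn (0.989) and Pde4dip (0.988), and for Myl4 Yipf7, Kansl1l and Nfix (0.959 to 0.968). The low Myh7b had no gene above 0.884, the value for Tbc1d22b, which was followed by Atpaf1 (0.879) and Itpkb (0.873).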

How the data were processed

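RNA of cardiomyocytes cultured for 24 h with a cytokine or PBS was sequenced in 12 libraries, with groups taken from their titles. The authors trimmed and aligned the reads (mm10, STAR 2.7.7a and featureCounts 1.6.5 in the submitters' processing notes), counted reads overlapping a single gene, normalized the counts by a method not given in the sources used here and rounded them. The deposited values are thus scores, normalized counts that sum to between 2745748 and 2911891 per library. Such sums do not give the reads sequenced, and the depth behind single values is unknown.

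Differences were tested with limma 3.58.1 in R 4.3.3 (mean-variance trend, two-sided) on log2(value + 1), with 4 conditions in a single fit, over 13184 genes at 10 or more in at least 3 libraries. The 1 added before the log understates changes of low genes. The threshold was a Benjamini-Hochberg adjusted p under 0.05 over all genes tested. The fit was tested on simulated data.

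The 9 genes, the gene lists and the markers were chosen with earlier results of these data known. Named genes were all 9, the 3 of each list with the largest change with hlOSM among those past the threshold, RNAs that overlap a member, and the 3 genes most alike to each by Pearson's r. Of the genes this rule takes, 1 is counted in its list but not reported here by name. Exonic lengths came from GENCODE vM21, in which 22876 of 22915 gene identifiers were found. Alternatives were pseudocounts of 0.1 and 5, no filter or a filter at 50, rescaling by the trimmed mean of M-values, quantile normalization, the replicate number as a block, a fit of only the 6 libraries compared and each library left out. The share of Myh7 by transcript length was added after the data were seen.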

Additional observations from a re-analysis of the deposited data

How the results depend on the processing

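Of 19 differences called among the tested members, 143 of 149 values under other settings kept direction and call and 6 lost the call. With 1 library left out, 210 of 228 values kept both and 18 lost the call. None of these values reversed. Of 37 differences not called, 4 values passed under other settings and 11 with 1 library left out, and 31 values changed sign without being called.

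Quantile normalization lowered the members called with mLIF from 4 to 2. The count of other thick filament and M-band genes called with mLIF, 3, became 5 with a pseudocount of 5, 6 with a filter at 50, 0 after quantile normalization and 9 with only the 6 libraries compared. The phosphorylation genes called with mLIF went from 4 to 2 without a filter. The nonmuscle and smooth muscle myosins went from 1 to 2 with mLIF in the fit of 6 libraries, and from 4 to 2 with mOSM and with hlOSM at the filter of 50, which leaves fewer genes tested. Apart from that filter, the cause was not tested.

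With each library left out in turn, members called ranged from 1 to 5 with mLIF (1 without PBS replicate 3 or mLIF replicate 3), from 1 to 3 for mOSM against mLIF (3 without mOSM replicate 3), from 2 to 4 for hlOSM against mLIF (2 without mLIF replicate 2 or hlOSM replicate 3) and from 0 to 1 for the difference between the LIF receptor steps. Other thick filament genes called with mLIF ranged from 1 to 7. They numbered 1 without replicate 2 or 3 of PBS or of mLIF, 5 without mOSM replicate 1 or 2, 7 without mOSM replicate 3 and 6 without hlOSM replicate 3. Phosphorylation genes called ranged from 2 to 4 with mLIF (2 without PBS replicate 3 or mLIF replicate 2 or 3), from 4 to 8 with mOSM (4 without PBS replicate 3) and from 5 to 12 with hlOSM (5 without PBS replicate 3, 7 without PBS replicate 1 or hlOSM replicate 1 or 3). The log2 ratio of Myh7 to Myh6 lay between -0.242 and -0.174 for hlOSM against PBS and passed without mLIF replicate 1, where it stayed at -0.20.

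The main fit held no block for the replicate number. Deviations of libraries with the same number correlated at -0.518 to 0.022 over 18 pairs (17 below 0). Of the within-condition variance 1.7% went with the number, beside the 25% that a number without effect would take. These values are no ground for leaving out the block, since they cannot tell unpaired libraries from a replicate effect removed before deposit. Such a removal was not tested for. With the replicate number as a block, 3 members were called with mLIF in place of 4, and 5 with mOSM and with hlOSM as without it. Over all genes the block gave 784 calls with mLIF in place of 1307, and 2 for hlOSM against mOSM in place of 14, all lowered. That count was 6 without a filter, 7 after rescaling by the trimmed mean of M-values, 19 after quantile normalization (2 raised and 17 lowered) and 0 in the fit of 6 libraries. For the difference between the LIF receptor steps, 22 genes became 11 without a filter and 14 with the block, the trimmed mean or quantile normalization, and from 5 (without mLIF replicate 3) to 154 (without hlOSM replicate 3) with 1 library left out, with 90 without PBS replicate 1. The 1307 genes with mLIF became 502 without mLIF replicate 3, 626 without PBS replicate 3, and 830 and 856 without mLIF replicates 1 and 2.

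Scaling factors recomputed from the values lay between 0.982 and 1.01. Counting error could not be attached to single values, and differences of Myh7b and Myl7 were not resolvable at their low values.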
